A study of Mus musculus with 10 samples.

Results

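Hepatocytes do not all do the same work. Those around the central vein, called pericentral, make glutamine from the last ammonia in the blood and carry much of the liver's drug metabolism, under the control of Wnt signals sent by the endothelium of the central vein. Those around the portal vein, called periportal, carry out the urea cycle, the breakdown of several amino acids and much of the making of glucose. The 37 genes described here mark these zones. They were a list of gene symbols, 20 of pericentral genes or Wnt targets and 17 of periportal genes, and all 37 were found once each among the 56748 genes of the count table. All 37 also passed the filter on low counts, as did 14068 genes in all.

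Livers were sampled from 2 groups of mice, 5 libraries each, all fed a high-fat, high-fructose diet for 4 months; the study concerns metabolic dysfunction associated steatohepatitis. The control group carried floxed Acss2 (genotype ACSS2-flox), and the other carried a knockout of Acss2 described as specific to liver cells (genotype ACSS2-HKO, here HKO). Acss2 encodes the enzyme that makes acetyl-CoA from acetate in the cytosol and nucleus. The labels name neither the Cre driver nor the age, sex, strain, litter or batch, and they do not say that each library came from its own animal, so p-values measure the spread between these libraries, which may be technical. No group on a control diet was analysed here, so every value below belongs to livers under this diet.

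Levels are CPM, counts relative to library size, scaled by TMM, a correction for library composition. They are given as mean ± SD (n = 5 per group) or library by library, always in the order of replicates 1 to 5. Log2 fold changes are HKO over flox. Each gene was tested with the quasi-likelihood F-test of edgeR, two-sided, and Benjamini-Hochberg adjustment ran over all 14068 genes, with a threshold of 0.05. Total counts per library were 16933436 to 17196774 in flox and 15413648 to 19275358 in HKO. Acss2 itself had 80.8 ± 29.5 CPM in flox and 49.4 ± 7.47 CPM in HKO, a log2 fold change of -0.71 ± 0.21 (SE) that did not pass (edgeR adjusted p = 0.0858), and the overlapping gene Gss on the other strand had 92.4% as many counts, so it checks the labels only in part. Acss2 passed with DESeq2 (adjusted p = 0.0427), with library totals (0.0447), with no filter (0.0433), with scaling to hepatocyte markers (0.038) and without flox replicate 3 (0.046). Hepatocyte markers identified the tissue as labelled: 11 of 11 were measured, their summed level was 100763 to 157483 CPM in flox and 132747 to 165580.0 CPM in HKO, and 0 passed the edgeR test (3 had an unadjusted p under 0.05, DESeq2 called 2 and limma-voom 0, and edgeR called 1 without flox replicate 4). Of 14 macrophage and Kupffer cell markers, 14 fell, with a summed level of 340.0 to 836 CPM in flox and 126 to 264 CPM in HKO and no marker at 0 in any library. The part of that difference in the results below was not tested. Of the other marker lists, 1 of 13 endothelial genes fell (0 once flox replicate 4 or 5, or HKO replicate 1, 2 or 4, was removed), 1 of 11 stellate cell genes (2 without flox replicate 4) and 1 of 6 lymphocyte genes (with 1 library left out, 1 in the fits without flox replicate 1 or 2 or HKO replicate 3 and 0 in the rest). At an unadjusted p under 0.05, 5 stellate cell, 2 endothelial and 2 lymphocyte genes were lower. The stellate cell calls also rose, to at most 3, with no filter and with scaling to hepatocyte markers. None of the 6 cholangiocyte, 3 neutrophil and 5 red blood cell genes passed the edgeR test, although 2 neutrophil genes were lower at an unadjusted p under 0.05, DESeq2 called 1 of them, limma-voom called 0 and edgeR called 1 without HKO replicate 3. In whole liver, fewer cells of a type and less RNA per cell cannot be told apart.

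In the edgeR test 6 members passed, and each was lower in HKO. They were the pericentral genes Slc1a4, Rhbg, Lect2, Ahr and Aldh1a1 and the periportal gene Aldh1b1. The share of all genes called in either direction was 3.99%, and 3.07% were called lower. Of the members, 5 of 20 pericentral (25%) and 1 of 17 periportal (5.88%) were called lower. The members were chosen with earlier results of these data known, so these counts do not test the zones against that background. The pericentral count was 3 without flox replicate 1 and without HKO replicates 3 or 5, and 2 without flox replicate 2 and without HKO replicates 1, 2 or 4. It was also 3 with limma-voom, and 2 with the replicate number as a block, a fit that called 3.18% of all genes. The genes called lower over all were 432 in the fit of all libraries and 371 with limma-voom. They were 403 and 331 without flox replicates 1 and 2. Without HKO replicates 1 to 5 in turn they were 242, 299, 478, 220 and 256. DESeq2, which called 5.9% of its genes, called the same number of members in each zone. No member rose in the edgeR test (0.917% of all genes did), where 0 had an unadjusted p under 0.05 with a higher level in HKO, and DESeq2 and limma-voom also called 0 higher. Of all 14068 genes, 854 were higher and 1518 lower at an unadjusted p under 0.05. Counts at that level, above and below, are to be read beside these. In a short list a count of 0 is no result about its genes. Most genes that define the zones did not pass, among them Glul, Cyp2e1, Cyp1a2, Axin2, Cps1, Ass1 and Cyp2f2. In 5 members, all of them called, the 5 HKO libraries lay below all 5 flox libraries, a pattern found in that direction in 3.46% of all genes and in either direction in 5.37%. In 0 members did all HKO libraries lie above all flox libraries, against 1.91% of all genes.

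**Figure D1:**
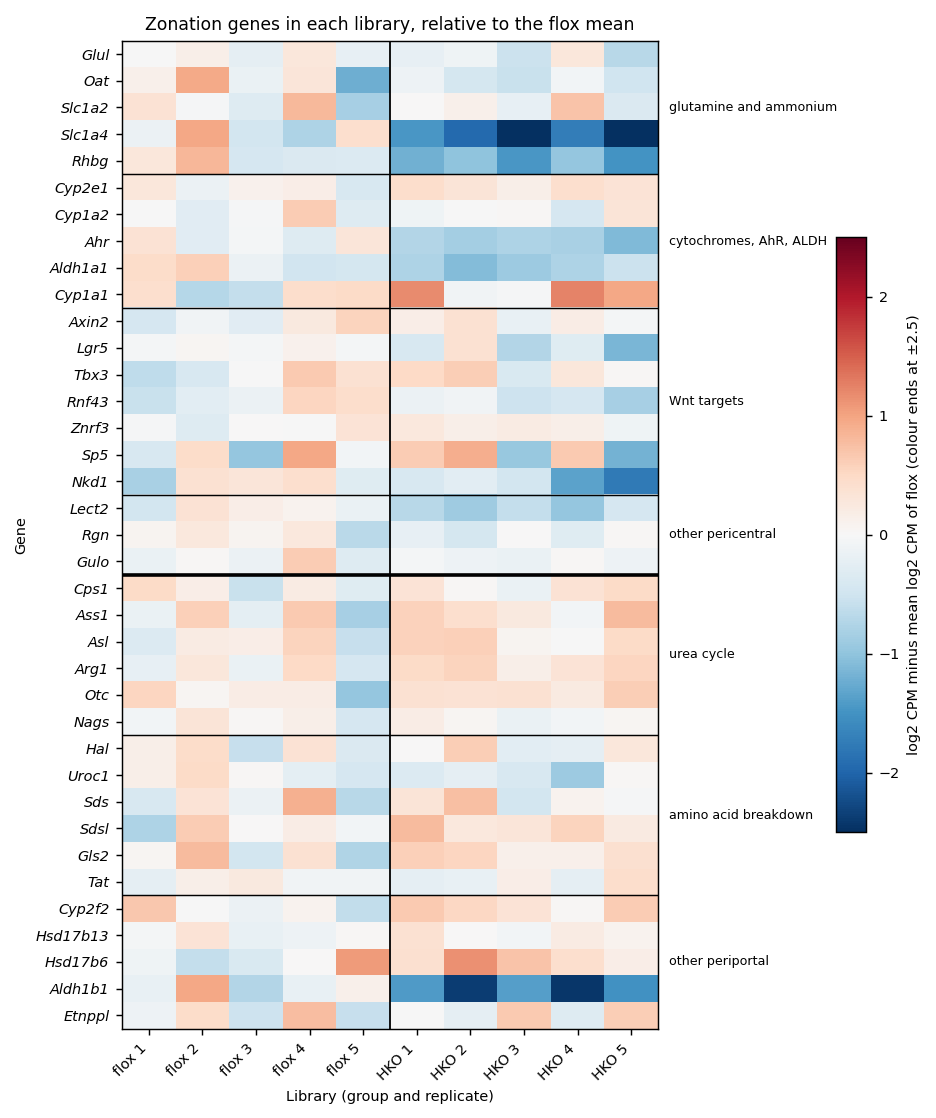
Level of each of the 37 genes (vertical axis, grouped by role, pericentral above the thick line) in each of the 10 libraries (horizontal axis), as log2 CPM minus the mean log2 CPM of the 5 flox libraries. All 6 called genes are below the flox mean in all 5 HKO libraries, as are Oat, Nkd1 and Rnf43, which did not pass. Cyp2e1, Otc, Arg1, Sdsl, Gls2, Cyp2f2 and Hsd17b6, which did not pass either, are above it in all 5. The urea cycle genes vary within flox, with flox replicate 5 low.

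The medians of the zones lay on either side of 0, both close to it. The median log2 fold change was -0.22 over the 20 pericentral members and 0.18 over the 17 periportal members, against 0.01 over all genes tested. Of the periportal members, 14 had a log2 fold change above 0, as did 6 of the pericentral members and 51% of all genes. Among the 11 hepatocyte markers, which include the members Cyp2e1 and Tat, 10 were above 0, with a median of 0.24. These values are a description, since members of a zone share the libraries they were read in. Without flox replicate 4 the pericentral median was -0.14, and without flox replicate 5 it was -0.30. Without flox replicate 3 the periportal median was 0.07, and without flox replicate 4 it was 0.36, and without flox replicate 5 it was 0.12. Scaling by library totals gave -0.31 and 0.09, and scaling to hepatocyte markers -0.35 and 0.05, where the median of all genes was itself shifted by -0.11 and -0.17.

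**Figure D2:**
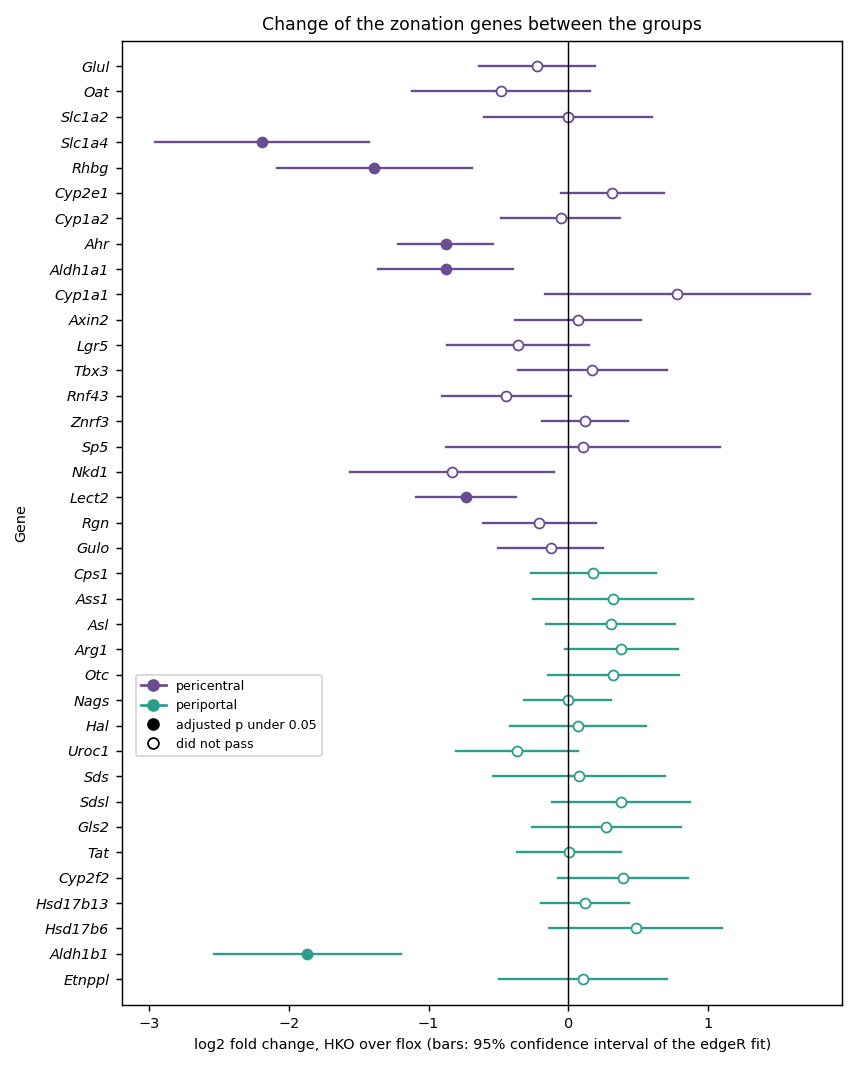
Log2 fold change of each of the 37 genes (horizontal axis, HKO over flox) with its 95% confidence interval from the edgeR fit, with one gene per line on the vertical axis, purple for pericentral and green for periportal. Filled points mark the 6 genes with an adjusted p under 0.05, all to the left of 0.

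The first pericentral role is the handling of glutamine, glutamate and ammonium. Glutamine synthetase, encoded by Glul, is confined to the hepatocytes next to the central vein and is the textbook Wnt-dependent gene of the liver. It was read at 912, 1019.9, 789, 1122 and 799 CPM across the flox libraries and 803, 856, 633, 1113 and 570.0 CPM across the HKO libraries. HKO replicates 3 and 5 lay below all flox libraries and the other 3 within the flox range, and the log2 fold change was -0.22 ± 0.19 (SE), with a 95% confidence interval of -0.64 to 0.19 (edgeR adjusted p = 0.618). The same zone takes up and makes the glutamate that the enzyme needs. Oat, the mitochondrial ornithine aminotransferase that turns ornithine toward glutamate, was at 1711, 3024, 1406, 1940.2 and 675 CPM across the flox libraries and 1445, 1156, 1073, 1496 and 1105 CPM across the HKO libraries. Flox replicate 2 held the highest Oat level and flox replicate 5 the lowest, with the 5 HKO libraries between them. Its log2 fold change of -0.48 ± 0.30 (SE) did not pass (edgeR adjusted p = 0.455). Slc1a2, the glutamate transporter GLT-1, had 249.7 ± 107 CPM in flox and 249 ± 78.2 CPM in HKO, and its log2 fold change of -0.00 had a confidence interval of -0.60 to 0.60.

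In contrast to these abundant genes, the neutral amino acid transporter gene Slc1a4 (ENSMUSG00000020142) fell 4.57-fold. Slc1a4 encodes ASCT1, which exchanges alanine, serine and cysteine. It stood at 8.32, 18.2, 6.66, 5.39 and 12.4 CPM across the flox libraries and 3.31, 2.33, 1.45, 2.699 and 1.38 CPM across the HKO libraries. Every HKO library lay below every flox library. On the log2 scale the change was -2.19 ± 0.36 (SE) (edgeR adjusted p = 0.00745). The exact permutation test, two-sided, reached p = 0.00794, the smallest that 5 against 5 libraries allow. Summed over libraries, 898 flox and 177 HKO counts lie behind the call, and it held in each alternative run, with an adjusted p of 2.85e-07 to 0.0187.

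Rhbg (ENSMUSG00000104445), a membrane channel for ammonia and ammonium of the Rh family found in pericentral hepatocytes, also fell. Its levels were 2.94, 4.32, 1.75, 1.83 and 1.86 CPM across the flox libraries and 0.972, 1.13, 0.793, 1.16 and 0.772 CPM across the HKO libraries, low in both groups and without overlap. HKO reached 38.2% of the flox level, with 95% confidence bounds of 23.6% and 61.96%. That is -1.39 ± 0.32 (SE) as a log2 fold change, at an edgeR adjusted p of 0.0289. It is the thinnest of the calls, with 220 flox and 77 HKO counts in all. The gene no longer passed once flox replicate 1 or 2 was removed, or any 1 of the 5 HKO libraries (edgeR adjusted p from 0.0531 to 0.0739), with limma-voom (0.0515) and with the replicate number as a block (0.0505). A predicted gene on the same strand, Gm38392, had 1.35% as many counts. Over an aligned stretch of at least 50% of the Rhbg transcript the 2 genes were 99.9% identical, so the split of reads between them is uncertain.

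The pericentral cytochromes kept no common direction. Cyp2e1, which oxidises ethanol, acetone and many small molecules, was the most abundant of the 37 genes. It had 13661, 10139, 12058, 12643 and 8501 CPM across the flox libraries and 15227, 13999.8, 12368, 15083 and 14170.5 CPM across the HKO libraries. All 5 HKO libraries lay above the flox median, and flox replicate 5 was the lowest of the 10. The log2 fold change was 0.31 ± 0.17 (SE), and it did not pass over all genes (edgeR adjusted p = 0.387), while the exact permutation test of this gene alone gave p = 0.0238, 1 of 37 such tests. Cyp1a2, the main caffeine-oxidising cytochrome, had 524 ± 154 CPM in flox and 504 ± 91.97 CPM in HKO, with a confidence interval of -0.48 to 0.37 for its log2 fold change. Cyp1a1, its inducible relative, was barely expressed, at 0.244 to 0.705 CPM in flox and 0.441 to 1.29 CPM in HKO, from 46 and 72 counts. A count of 3, the limit used here for a gene with none, is worth 0.151 to 0.198 CPM. Its log2 fold change had an interval of -0.17 to 1.73, and no difference was detectable at this depth.

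Ahr (ENSMUSG00000019256), the aryl hydrocarbon receptor that induces both Cyp1a genes when a ligand binds, fell 1.84-fold. It was at 116, 73.99, 87.2, 72.5 and 112 CPM across the flox libraries and 54.3, 50.3, 53.2, 51.5 and 42.3 CPM across the HKO libraries. Within HKO the 5 libraries were close together, and the highest of them was well below the lowest flox library. The receptor gene changed by -0.88 ± 0.16 (SE) on the log2 scale (edgeR adjusted p = 0.0109, exact permutation p = 0.00794), and the adjusted p was 8.57e-05 to 0.0311 over the alternatives. Its targets Cyp1a1 and Cyp1a2 are given above, and neither passed.

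Aldh1a1 (ENSMUSG00000053279), a cytosolic retinaldehyde and aldehyde dehydrogenase, was among the abundant members and fell to 54.4% of the flox level, with 95% confidence bounds of 38.9% and 76.1%. It had 2979.5, 3286, 1961, 1558 and 1595 CPM across the flox libraries and 1272, 1025, 1148, 1261 and 1486 CPM across the HKO libraries. Flox replicates 1 and 2 were far above the other 3 flox libraries, and flox replicate 4 was close to HKO replicate 5, the highest of its group. HKO and flox differed by -0.88 ± 0.23 (SE) on the log2 scale (edgeR adjusted p = 0.0438). The gene no longer passed without flox replicates 1 or 2 (0.0899 and 0.107), without any 1 HKO library (0.0629 to 0.112), with limma-voom (0.0527) and with the replicate number as a block (0.116).

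**Figure D3:**
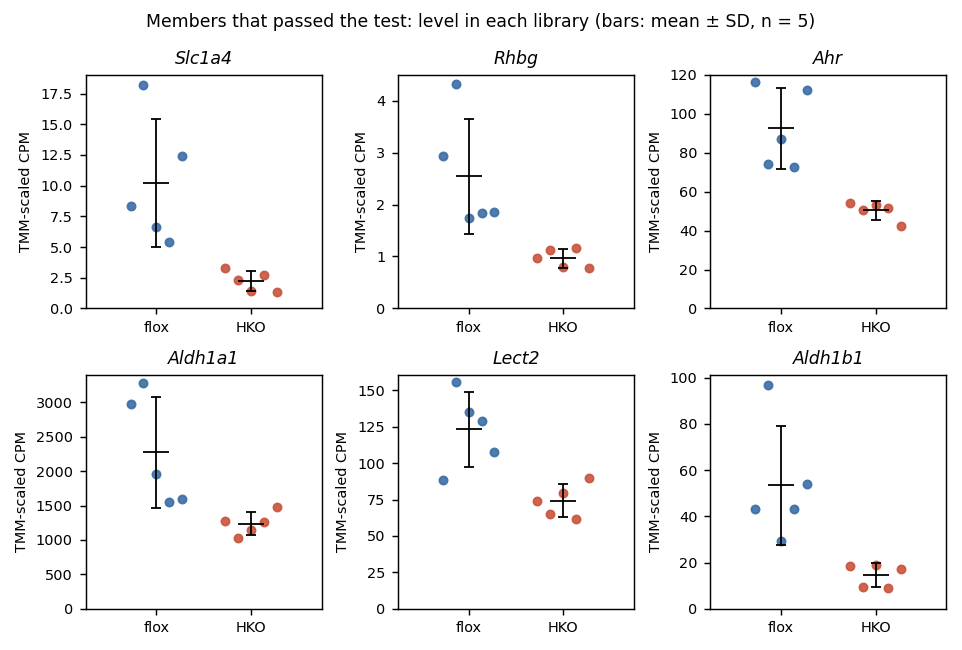
TMM-scaled CPM (vertical axes, from 0) of the 6 genes that passed the test, with one point per library, 5 flox in blue and 5 HKO in red, and bars at the mean ± SD. The groups overlap in Lect2, where flox replicate 1 (88.2 CPM) lies below HKO replicate 5 (90.002 CPM), and in none of the other 5 genes.

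Of the 7 members grouped as Wnt pathway feedback and transcription targets, a group without Glul and Lect2, 0 passed the edgeR test. Of these, 1 had an unadjusted p under 0.05 (Nkd1), and DESeq2 and limma-voom called 0. Axin2 and Nkd1 encode inhibitors that feed back on the pathway inside the cell, Rnf43 and Znrf3 encode ubiquitin ligases that remove Wnt receptors from the membrane, and Lgr5 is a receptor for R-spondins, which block those ligases. Sp5 and Tbx3 are transcription factors. Axin2, the general reporter of Wnt activity, was at 5.94, 7.49, 6.55, 9.45 and 11.9 CPM across the flox libraries and 9.01, 10.5, 7.07, 9.06 and 7.77 CPM across the HKO libraries. The groups overlapped, and the log2 fold change of 0.07 ± 0.21 (SE) had an interval of -0.38 to 0.52. Lgr5 had the lowest coefficient of variation in flox among the 37 members (5.39%, 10.1 to 11.3 CPM in flox), and it varied more in HKO (41.4%, 4.68 to 13.7 CPM in HKO). Its log2 fold change was -0.36 ± 0.24 (SE) (edgeR adjusted p = 0.491).

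The ligase genes differed in the sign of their estimates. Rnf43 had 31.02 ± 10.1 CPM in flox and 22.8 ± 4.504 CPM in HKO, a log2 fold change of -0.44 ± 0.21 (SE) (edgeR adjusted p = 0.32), and Znrf3 had 15.2 ± 2.59 CPM in flox and 16.5 ± 1.56 CPM in HKO, a log2 fold change of 0.12 ± 0.14 (SE) (edgeR adjusted p = 0.746). Neither passed, and the 2 genes were not compared with each other by a test. Nkd1 was at 2.45, 5.79, 5.46, 5.96 and 3.53 CPM across the flox libraries and 3.31, 3.66, 3.17, 1.67 and 1.21 CPM across the HKO libraries, so that HKO replicates 4 and 5 were the lowest of all 10 libraries and flox replicate 1 was below 3 HKO libraries. It had the lowest estimate of the 7, -0.83 ± 0.34 (SE) (edgeR adjusted p = 0.218). Tbx3 had 39.2 ± 14.4 CPM in flox and 44.2 ± 11.4 CPM in HKO, read together with the antisense gene Tbx3os1, which had 39.5% as many counts, and Sp5 had 3.09 ± 1.65 CPM in flox and 3.32 ± 1.91 CPM in HKO. Their confidence intervals were -0.36 to 0.70 and -0.88 to 1.08 on the log2 scale.

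The remaining pericentral genes are Lect2, Rgn and Gulo. Lect2 (ENSMUSG00000021539), which encodes a protein secreted by hepatocytes and is a Wnt target in mouse liver, fell 1.66-fold. It was read at 88.2, 156, 135, 129 and 107 CPM across the flox libraries and 74.1, 65.04, 79.5, 61.8 and 90.002 CPM across the HKO libraries, with an overlap of 1 library on each side. Its log2 fold change was -0.73 ± 0.17 (SE) (edgeR adjusted p = 0.0259, exact permutation p = 0.0159). Leaving out flox replicate 2 or HKO replicates 1, 2 or 4 took the adjusted p to between 0.0622 and 0.0694, and the replicate block took it to 0.0632. Rgn, or regucalcin, and Gulo, or L-gulonolactone oxidase, act one after the other at the end of vitamin C synthesis in mice. Rgn had 1132 ± 259 CPM in flox and 980.1 ± 137 CPM in HKO and Gulo 411 ± 119 CPM in flox and 377 ± 19.8 CPM in HKO, and neither passed (edgeR adjusted p = 0.638 and 0.785). Flox replicate 5 was the lowest flox library for both.

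Promoter sequences were taken from RefSeq (GRCm38.p6) for the 24 of 37 members that could be matched, 28 windows of the 250 bases before an annotated start. They were searched on both strands for the TCF/LEF cores CTTTGAT or, with another last letter, CTTTGAA, through which Wnt signals reach genes, and for GCGTG, the core bound by the aryl hydrocarbon receptor. A match is a string of letters, not a shown binding site. A TCF/LEF core was in 6 of 15 pericentral windows (Aldh1a1, Cyp1a2, Cyp2e1, Lect2, Slc1a2 and Sp5), 2 of 13 periportal windows (Hal and Nags) and 7.48% of all 32851 windows in the table. GCGTG was in 5 pericentral windows (Cyp1a1, Lect2, Nkd1, Rnf43 and Slc1a4), 2 periportal windows (Ass1 and Hal) and 28.2% of all windows. The genes with a TCF/LEF core include called members (Lect2, Aldh1a1) and members that did not pass (Sp5, Cyp2e1, Cyp1a2, Slc1a2). The windows matched for called members are printed here, with those of Sp5 and Cyp1a1, which did not pass, for comparison. Each is written 5′ to 3′ in the direction of its gene, and capitals mark the cores, read as written or as their reverse complement.
Slc1a4 (chr11:20332714-20332963, minus strand): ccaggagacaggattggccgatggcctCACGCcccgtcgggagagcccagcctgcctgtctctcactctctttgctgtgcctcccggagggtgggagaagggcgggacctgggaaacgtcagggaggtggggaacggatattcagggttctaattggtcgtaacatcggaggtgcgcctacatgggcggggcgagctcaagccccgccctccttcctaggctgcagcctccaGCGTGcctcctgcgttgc
Lect2 (chr13:56548539-56548788, minus strand): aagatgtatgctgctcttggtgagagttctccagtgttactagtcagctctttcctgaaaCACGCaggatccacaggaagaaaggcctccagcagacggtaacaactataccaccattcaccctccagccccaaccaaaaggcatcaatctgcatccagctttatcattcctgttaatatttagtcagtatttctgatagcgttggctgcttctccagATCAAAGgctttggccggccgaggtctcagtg
Aldh1a1, upstream start (chr19:20492333-20492582, plus strand): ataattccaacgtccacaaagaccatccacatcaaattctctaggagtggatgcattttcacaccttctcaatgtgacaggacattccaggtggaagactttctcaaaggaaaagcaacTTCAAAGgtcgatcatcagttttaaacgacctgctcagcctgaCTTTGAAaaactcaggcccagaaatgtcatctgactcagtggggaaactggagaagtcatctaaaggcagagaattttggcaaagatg
Aldh1a1, downstream start (chr19:20601718-20601967, plus strand): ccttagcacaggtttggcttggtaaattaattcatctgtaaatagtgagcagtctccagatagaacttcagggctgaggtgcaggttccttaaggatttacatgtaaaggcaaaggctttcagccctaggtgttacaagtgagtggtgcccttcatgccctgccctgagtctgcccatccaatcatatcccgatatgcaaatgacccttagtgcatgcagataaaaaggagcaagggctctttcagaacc
Aldh1b1 (chr4:45798772-45799021, plus strand): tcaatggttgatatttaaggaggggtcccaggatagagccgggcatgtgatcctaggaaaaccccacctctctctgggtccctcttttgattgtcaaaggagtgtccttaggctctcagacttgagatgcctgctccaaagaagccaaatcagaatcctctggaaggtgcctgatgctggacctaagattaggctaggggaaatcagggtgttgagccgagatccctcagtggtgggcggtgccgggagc
Sp5 (chr2:70474673-70474922, plus strand): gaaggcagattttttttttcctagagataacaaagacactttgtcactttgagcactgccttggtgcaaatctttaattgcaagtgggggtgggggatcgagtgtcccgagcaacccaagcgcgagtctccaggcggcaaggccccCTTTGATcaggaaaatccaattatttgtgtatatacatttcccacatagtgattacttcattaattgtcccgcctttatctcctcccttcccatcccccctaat
Cyp1a1 (chr9:57697363-57697612, plus strand): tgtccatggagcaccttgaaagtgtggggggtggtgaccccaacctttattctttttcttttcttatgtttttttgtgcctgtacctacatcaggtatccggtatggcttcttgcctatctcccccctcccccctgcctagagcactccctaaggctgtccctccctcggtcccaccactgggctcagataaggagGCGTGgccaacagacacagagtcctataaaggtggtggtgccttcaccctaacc
In these windows Slc1a4 and Lect2, which fell, and Cyp1a1, whose low counts did not pass, hold GCGTG, and Aldh1b1, which fell 3.65-fold, holds none of the 3 cores. Of the Aldh1a1 windows, only the one before the upstream start holds a core.

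Among the periportal genes, the urea cycle turns ammonia into urea for excretion. Of its 6 members, 0 passed the edgeR test, 0 had an unadjusted p under 0.05, and DESeq2 and limma-voom called 0. Nags makes the N-acetylglutamate that switches on carbamoyl phosphate synthetase, the product of Cps1, and it does so from acetyl-CoA and glutamate. Nags was at 60.6, 79.7, 64.8, 70.6 and 47.95 CPM across the flox libraries and 72.7, 65.9, 56.7, 60.7 and 66.3 CPM across the HKO libraries, with a log2 fold change of -0.01 ± 0.14 (SE) and an interval of -0.32 to 0.30. Cps1 was at 3333, 2660.3, 1626, 2753 and 1944 CPM across the flox libraries and 3012, 2450.2, 2133, 3049 and 3302 CPM across the HKO libraries. The spread within flox was wider than the distance between the group means, and the log2 fold change was 0.18 ± 0.21 (SE) (edgeR adjusted p = 0.732).

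Otc, Ass1, Asl and Arg1 carry the cycle through citrulline and arginine to urea. Otc, ornithine transcarbamylase, was at 533, 383, 416, 419.7 and 189 CPM across the flox libraries and 479, 470.0, 478, 433 and 566 CPM across the HKO libraries. Flox replicate 5 stood below every other library, flox replicates 2, 3 and 4 lay below the lowest HKO library, and flox replicate 1 lay within the HKO range. Arg1, arginase, which releases urea, was at 911, 1284, 936, 1492 and 791 CPM across the flox libraries and 1463, 1552, 1169, 1327 and 1529 CPM across the HKO libraries, and its log2 fold change of 0.38 ± 0.19 (SE) came closest to passing among the 6 (edgeR adjusted p = 0.334, exact permutation p = 0.0714). Ass1, argininosuccinate synthase, had 1338 ± 551 CPM in flox and 1668 ± 365 CPM in HKO. A predicted gene, Gm5424, was 99.5% identical to Ass1 over an aligned stretch of at least 50% of its transcript. Asl, argininosuccinate lyase, had 444 ± 137 CPM in flox and 548 ± 105 CPM in HKO. The intervals of the log2 fold change were -0.15 to 0.79 for Otc, -0.26 to 0.89 for Ass1, -0.16 to 0.77 for Asl and -0.03 to 0.78 for Arg1. In percent of flox, the upper bounds were 172% for Arg1 and 186% for Ass1.

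The genes of amino acid breakdown gave a similar picture of overlap. Of 6, 0 passed the edgeR test, 0 had an unadjusted p under 0.05, and DESeq2 and limma-voom called 0. Hal, histidase, and Uroc1, urocanase, are the opening steps of histidine breakdown, and their estimates had opposite signs. Hal had 268 ± 79.7 CPM in flox and 281 ± 74.6 CPM in HKO (log2 fold change 0.07 ± 0.23 (SE)) and Uroc1 466 ± 115 CPM in flox and 361 ± 81.7 CPM in HKO (log2 fold change -0.37 ± 0.20 (SE), edgeR adjusted p = 0.392). Sds, serine dehydratase, a gene that follows glucagon and protein intake, ranged over 74.9 to 225 CPM in flox and 88.3 to 206 CPM in HKO, and Plbd2 on the other strand had 50.05% as many counts. Its neighbour Sdsl had 8.34 ± 2.83 CPM in flox and 10.8 ± 1.87 CPM in HKO. Gls2, the liver glutaminase that frees ammonia for the urea cycle, was at 227, 379, 161, 286 and 130.2 CPM across the flox libraries and 333, 321, 242, 240.2 and 292 CPM across the HKO libraries. The flox libraries of Gls2 spanned more than the HKO libraries, which lay inside the flox range. The Gls2 log2 fold change was 0.27 ± 0.25 (SE) (edgeR adjusted p = 0.643). Tat, tyrosine aminotransferase, a glucocorticoid-induced enzyme, had 1313 ± 181 CPM in flox and 1318 ± 286 CPM in HKO, with an interval of -0.37 to 0.38.

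Of the 5 other periportal enzymes, Aldh1b1 (ENSMUSG00000035561), a mitochondrial aldehyde dehydrogenase, fell 3.65-fold. It was at 43.3, 96.8, 29.4, 43.3 and 53.8 CPM across the flox libraries and 18.4, 9.39, 18.96, 8.997 and 17.3 CPM across the HKO libraries. The highest HKO library was below the lowest flox library, and flox replicate 2 was the highest by a wide margin. Its log2 fold change was -1.87 ± 0.31 (SE) (edgeR adjusted p = 0.00834, exact permutation p = 0.00794), and the adjusted p was 8.34e-07 to 0.0211 over the alternatives. It was the only periportal member called in the fit of all 10 libraries, and it moved against the sign of the periportal median.

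Cyp2f2, the naphthalene-oxidising cytochrome that serves as a periportal marker, was at 675, 419, 381, 450.1 and 276 CPM across the flox libraries and 665, 605, 534, 428 and 654 CPM across the HKO libraries. Flox replicate 1 was above every HKO library and flox replicate 5 was the lowest of all 10, and the log2 fold change of 0.39 ± 0.22 (SE) did not pass (edgeR adjusted p = 0.394). Hsd17b13, a lipid droplet enzyme known from human fatty liver genetics, had 346 ± 53.1 CPM in flox and 375 ± 47.2 CPM in HKO, with an interval of -0.20 to 0.43. Hsd17b6, a steroid and retinol dehydrogenase, was at 104, 73.1, 85.5, 111 and 233 CPM across the flox libraries and 146, 244, 182, 149 and 124 CPM across the HKO libraries. In this gene flox replicate 5 stood above the other 4 flox libraries, which were all below every HKO library. The log2 fold change was 0.48 ± 0.29 (SE) (edgeR adjusted p = 0.438), and without flox replicate 5 it was 0.86 (adjusted p = 0.0478), which made 2 periportal calls, 1 in each direction. Etnppl, a phospholyase that breaks down phosphoethanolamine, ranged over 30.5 to 78.04 CPM in flox and 36.6 to 72.2 CPM in HKO, with an interval of -0.50 to 0.71.

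To compare genes with one another, counts were also divided by the gene length in the table (RPKM). On this scale of levels Cyp2e1 was first in flox, at 5283 ± 958 RPKM, then Oat at 742 ± 363 and Rgn at 705 ± 161. The order of Oat, Rgn, Ass1 (554 ± 228) and Tat (546 ± 75.2) lay within their spread over libraries. The most abundant periportal genes, Ass1, Tat, Arg1 (486 ± 132) and Cps1 (443 ± 122), stood above Glul (245 ± 37.95) and Cyp2f2 (217 ± 72.5). At the other end were Cyp1a1 (0.185 ± 0.0847) and a group of Wnt targets and transporters with means from 1.02 to 2.599 RPKM in flox: Nkd1, Lgr5, Rhbg, Sp5, Axin2, Znrf3 and Slc1a4. Of the 6 genes that fell, Aldh1a1 was at rank 7 of 37 in this order, Lect2 at 15, Aldh1b1 at 22, Ahr at 25, Slc1a4 at 30 and Rhbg at 34.

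**Figure D4:**
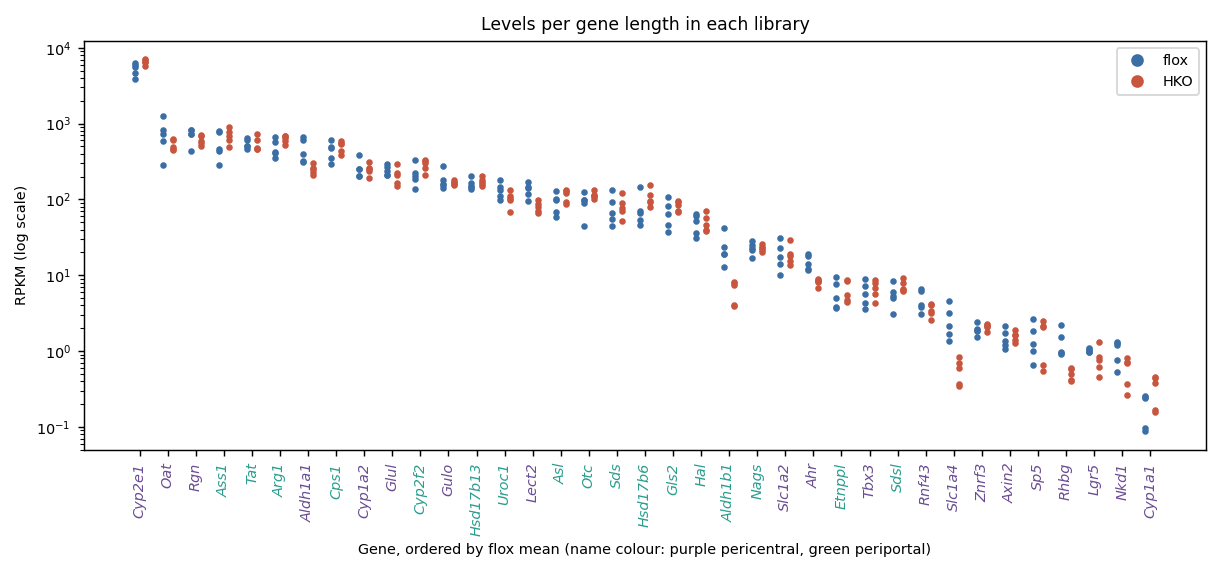
RPKM per library on a log scale (vertical axis) for the 37 genes, ordered by the flox mean (horizontal axis), flox in blue and HKO in red, with purple names for pericentral and green for periportal genes. Mean flox levels run from 5283 RPKM for Cyp2e1 to 0.185 RPKM for Cyp1a1, and the called genes Aldh1a1, Aldh1b1, Ahr, Slc1a4 and Rhbg show separate blue and red points at very different levels.

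Libraries of one group also differed from each other across many members. Among the 17 periportal members, flox replicate 5 was the lowest flox library in 10, and flox replicate 2 was the highest in 7. Among the 20 pericentral members, flox replicate 4 was the highest flox library in 10 and HKO replicate 5 the lowest HKO library in 10. A score, the mean over a zone of each member's log2 CPM centred over the 10 libraries, was 0.10, 0.29, 0.00, 0.40 and 0.05 for the pericentral members in flox and 0.00, -0.05, -0.36, -0.04 and -0.39 in HKO. The ranges met at their ends, where HKO replicate 1 was marginally above flox replicate 3, and the called genes enter these scores. For the periportal members the score was -0.09, 0.28, -0.26, 0.20 and -0.40 in flox and 0.16, 0.11, -0.04, -0.17 and 0.20 in HKO, so the HKO range lay inside the flox range. The hepatocyte marker score, which includes the members Cyp2e1 and Tat, was -0.11, -0.04, -0.00, 0.01 and -0.43 in flox and 0.12, -0.05, 0.17, 0.08 and 0.25 in HKO, with flox replicate 5 the lowest there too. That library had the highest scores of all 10 for stellate cell (1.26), cholangiocyte (1.08) and neutrophil markers (1.46) and the lowest for red blood cell markers (-1.86). Its macrophage score (1.46) was below only that of flox replicate 4 (1.49), and its endothelial score (0.38) was the highest in flox. Its lymphocyte score (0.77) was below those of flox replicates 3 (0.78) and 4 (0.83). The part of these markers in the result was not tested.

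**Figure D5:**
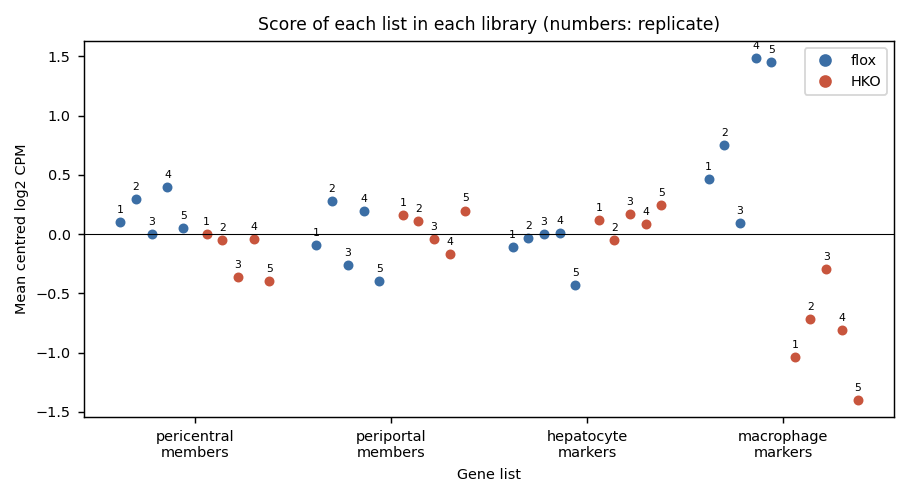
Mean centred log2 CPM (vertical axis) of the pericentral members, the periportal members, the hepatocyte markers and the macrophage markers (horizontal axis) in each library, numbered by replicate, flox in blue and HKO in red. Flox replicate 5 is lowest for the periportal members and the hepatocyte markers, and the macrophage scores of flox are all above 0 and those of HKO all below 0.

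Ratios of a pericentral to a periportal gene within a library do not depend on its depth. The log2 ratio of Cyp2e1 to Cyp2f2 CPM was 4.74 ± 0.27 in flox and 4.63 ± 0.29 in HKO. For Glul to Gls2, the synthesis against the breakdown of glutamine, it was 2.06 ± 0.44 and 1.45 ± 0.46, with HKO replicate 4 inside the flox range, and for Glul to Cps1 it was -1.38 ± 0.30 and -1.83 ± 0.43. The ranges of the groups overlapped in all 3 ratios.

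The other genes of these processes were read from lists of symbols, chosen with earlier results of these data known. For comparison, 3.07% of all genes were called lower and 0.917% higher, and 1518 of 14068 were lower and 854 higher at an unadjusted p under 0.05. Of 33 measured genes of Wnt ligands, receptors and machinery, 1 fell and 0 rose in the edgeR test (median log2 fold change 0.10; 1 was higher at an unadjusted p under 0.05, and DESeq2 called 1 higher and limma-voom 0). The gene that fell was Tnfrsf19, a membrane receptor known as a Wnt target, from 8.86 ± 2.08 to 4.47 ± 1.19 CPM (edgeR adjusted p = 0.0301). It no longer passed once flox replicate 2 or 5, or HKO replicate 3, 4 or 5, was removed (adjusted p from 0.0551 to 0.0827) and with the replicate block (0.0721), and without HKO replicate 1 the list had 2 calls, 1 in each direction.

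Among 32 other pericentral genes, 8 fell and 0 rose (2 were higher at an unadjusted p under 0.05, and DESeq2 and limma-voom each called 1 higher). That is 25% of the list, with a median of -0.14. Cyp2a4 is among the 8 and is counted again with the female-biased genes below, and its near-identical copy Cyp2a5 is also among the 8. The sodium-dicarboxylate cotransporter gene Slc13a3 fell from 39.6 ± 12.999 to 11.9 ± 1.17 CPM, the glutathione transferase gene Gstm3 from 57.1 ± 45.4 to 5.35 ± 1.81 CPM and the calcineurin inhibitor gene Rcan1 from 34.5 ± 11.6 to 12.8 ± 2.67 CPM (edgeR adjusted p = 0.00141, 0.00362 and 0.00719). Among 31 other periportal genes, 3 rose and 1 fell (median 0.03). The latter was Acly, the ATP citrate lyase gene, from 92.7 ± 26.9 to 51.4 ± 11.6 CPM (edgeR adjusted p = 0.0405), and no gene of the list fell once flox replicate 1, 2, 4 or 5, or HKO replicate 2, 3, 4 or 5, was removed. The risers were Cyp7b1, the oxysterol hydroxylase, from 53.98 ± 16.9 to 249.7 ± 63.7 CPM, the binding protein gene Igfbp2, from 319 ± 56.03 to 780.3 ± 217 CPM, and Igf1, from 491 ± 84.5 to 805 ± 88.7 CPM (edgeR adjusted p = 0.000841, 0.00618 and 0.0233). Without HKO replicate 4 that list had 2 calls, both higher, and Igf1 was not among them (adjusted p = 0.0601). Igf1 also no longer passed without HKO replicate 1 (0.0614) and with scaling to hepatocyte markers (0.0662).

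Nitrogen, glutamine and histidine metabolism beyond the members had 28 measured genes, of which 1 rose and 2 fell (median -0.11). Hdc, which makes histamine from histidine, rose from 18.3 ± 7.59 to 53.96 ± 24.96 CPM (edgeR adjusted p = 0.0176), and Slc38a1, a glutamine transporter gene, fell from 2.11 ± 0.923 to 0.614 ± 0.129 CPM (edgeR adjusted p = 0.0148). Aldh18a1, the proline synthesis enzyme gene, fell from 1.83 ± 0.9098 to 0.513 ± 0.287 CPM (edgeR adjusted p = 0.0296), and it overlaps Gm15801, which had 37.5% as many counts. Aldh18a1 no longer passed without flox replicate 5 and without HKO replicates 1, 2, 4 or 5 (adjusted p from 0.0651 to 0.0779). Of 23 other genes of serine, threonine, tyrosine and phenylalanine breakdown, 0 passed the edgeR test (2 were lower at an unadjusted p under 0.05, DESeq2 called 1 lower and limma-voom 0, and edgeR called 1 without flox replicate 5). The most abundant of them, Bhmt, which methylates homocysteine, had 4097 ± 1249 CPM in flox and 2550.3 ± 1148 CPM in HKO (edgeR adjusted p = 0.28), with a near-identical copy, Gm5096, at 99.4% identity.

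Among 11 measured partners and targets of the aryl hydrocarbon receptor, 1 fell and 0 rose in the edgeR test (0 were higher at an unadjusted p under 0.05, and DESeq2 and limma-voom called 0 higher). It was Nqo1, the quinone reductase gene, which fell from 10.96 ± 3.95 to 5.303 ± 0.919 CPM (edgeR adjusted p = 0.023). The list had 0 calls without HKO replicates 2, 4 or 5 (Nqo1 adjusted p from 0.0504 to 0.0599) and 2 without HKO replicate 3. Among 15 ascorbate and retinoid genes, 1 rose and 1 fell. Aldh1a7, the close relative of Aldh1a1, fell from 201 ± 47.995 to 110.2 ± 21.3 CPM (edgeR adjusted p = 0.0206, lost without HKO replicates 2 or 4 at 0.0504 to 0.056). Rbp4, the plasma retinol carrier gene, rose from 2359 ± 395 to 3643 ± 209 CPM (edgeR adjusted p = 0.0383), a call lost in 12 alternatives, where the adjusted p reached 0.144.

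Of 24 transcription factors and hormone inputs, 2 rose and 0 fell (0 were lower at an unadjusted p under 0.05, and DESeq2 and limma-voom called 0 lower). Egfr, the receptor for epidermal growth factor, rose 3.12-fold, from 178 ± 74.1 to 554 ± 225 CPM (edgeR adjusted p = 0.0133), and the pioneer factor gene Foxa1 from 24.99 ± 4.99 to 42.02 ± 8.32 CPM (edgeR adjusted p = 0.0256). Foxa1 no longer passed once flox replicate 2 or 5, or HKO replicate 1 or 5, was removed (adjusted p from 0.0515 to 0.0592), or with scaling to hepatocyte markers (0.14).

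Genes with sex-biased expression, several of them zoned, were read beside the members because the labels give no sex. Of 16 male-biased liver genes, 8 rose and 0 fell (0 were lower at an unadjusted p under 0.05, and DESeq2 and limma-voom called 0 lower), with a median log2 fold change of 1.73. They include Cyp7b1, given above, the urinary protein gene Mup20, from 687 ± 393 to 2393 ± 699.9 CPM (edgeR adjusted p = 0.0136), and the fatty acid elongase gene Elovl3, from 57.7 ± 32.5 to 219 ± 135 CPM (edgeR adjusted p = 0.0181). The count was 13 without flox replicate 4, 5 without flox replicate 2 or HKO replicate 2, and 4 when flox replicate 1 or 5, or HKO replicate 1 or 4, was removed. It was 15 with no filter, 14 with the replicate block and 4 with robust dispersion. Of 9 measured female-biased genes, 5 fell and 0 rose (0 were higher at an unadjusted p under 0.05, and DESeq2 and limma-voom called 0 higher), and 3 fell without flox replicate 5. Cyp2b9, a female-biased cytochrome, fell from 330.0 ± 198 to 1.86 ± 1.77 CPM (edgeR adjusted p = 0.000913). In HKO, Hao2 was below the level of 3 counts in every library and Cyp2a4 had a mean within the range of that level, so no fold is given, with 7.88 ± 5.33 CPM in flox and 0.0762 ± 0.0556 CPM in HKO for Hao2 and 25.8 ± 32.7 CPM in flox and 0.188 ± 0.183 CPM in HKO for Cyp2a4. The flox libraries of Cyp2a4 spanned 1.09 to 74.3 CPM, and the gene did not pass with limma-voom (adjusted p = 0.154). Its near-identical copy Cyp2a5 (98.2% identity) had 721 ± 269 CPM in flox and 305 ± 82.9 CPM in HKO. The split of reads between Cyp2a4 and Cyp2a5 is therefore uncertain. Of 4 measured genes of the sex chromosomes, 0 passed the edgeR test (0 at an unadjusted p under 0.05, and DESeq2 and limma-voom called 0). Their log2 fold changes were 0.12 to 0.18. The Y-linked Ddx3y had 88.8 ± 19.5 CPM in flox and 99.7 ± 12.7 CPM in HKO. It was read in every library, at 71.4 to 121.8 CPM in flox and 90.8 to 122.0 CPM in HKO. Whether the sex-biased genes have a part in the members' differences was not tested.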

How the data were processed

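The authors deposited raw counts per gene for 10 mouse liver RNA-seq libraries. The submitters' processing notes name the mm10 genome and DESeq2. Which aligner, counter, annotation and strand setting they used was not given in the sources used here. The members and the gene lists were chosen with earlier results of these data known. From the counts, edgeR 4.0.16 (R 4.3.3) was run on genes passing filterByExpr by group, with TMM factors, glmQLFit and glmQLFTest and no covariate. Standard errors were derived from the F statistic and the log2 fold change. The exact two-sided permutation test used all 252 assignments of log2 CPM (prior count 2). Alternatives were library totals, RLE factors, DESeq2 1.42.0, limma-voom (limma 3.58.1), no filter, at least 1 CPM in 5 libraries, robust dispersion, the replicate number as a block, each library left out, and, chosen after seeing the data, scaling to summed hepatocyte markers. Named genes were all 37 members, Acss2 and up to 3 genes of each related list by smallest p among those that passed. Where none passed, the most abundant gene of the list was named, as with Bhmt and Ddx3y. Acly was chosen after its values were seen. The edgeR script was tested on simulated data. Replicates differed by more than sampling noise (chi-square per degree of freedom of at least 24.57). Near-identical copies were found with BLAST among GENCODE M21 transcripts, and overlapping genes from the gene positions deposited with the counts. Of 52073 genes also in GENCODE M21, 2.83% had the same position there, so the deposited positions do not follow that annotation. Deposited Glul, on chromosome 1, spans 153775690 to 153785469, away from its GRCm38.p6 promoter window, which ends at 153899928. The deposited positions may therefore not be on mm10, which is GRCm38, and their assembly was not tested. Promoter windows came from RefSeq. No column was left unmapped.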

Additional observations from a re-analysis of the deposited data

Results flagged for a closer look

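In each group of 5 libraries, the highest or lowest value was compared with its nearest neighbour relative to the group's range (Dixon's criterion), which chance alone exceeds in about 1 in 20 groups. Among the members 1 of 74 groups exceeded it. Rgn in flox replicate 5 was at 692.1 CPM, against 1158 to 1332 CPM in the other flox libraries. Over the members, Acss2 and the named related genes, 6 of 120 groups did. Bhmt was also low in flox replicate 5, at 1951 CPM against 4070.0 to 4951 CPM. In flox replicate 4 Cyp2b9 was at 49.6 CPM against 298.5 to 599.7 CPM. In HKO replicate 4 Cyp7b1 was at 363.4 CPM against 215.2 to 227.9 CPM, and Ddx3y at 122.0 CPM against 90.8 to 96.7 CPM. Slc38a1 in HKO replicate 1 was at 0.843 CPM, against 0.529 to 0.578 CPM in the other HKO libraries.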

How the results depend on the processing

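Over all genes, 561 were called by edgeR, 1100 by DESeq2, and 289 to 673 with 1 library left out (361 without flox replicate 5, 335 without HKO replicate 1, 289 without HKO replicate 4 and 354 without HKO replicate 5). The 5 pericentral calls became 3 with limma-voom, 2 with the replicate block and 2 to 5 with 1 library left out, and the periportal call became 1 to 2, with 2 without flox replicate 5. Same-numbered libraries correlated at -0.12 to 0.24 in their deviations, 1 of 5 pairs over 0.1, and 0 flox libraries correlated best with their own number, so the numbers were not taken to pair the libraries; with the replicate block 448 genes were called. Of 702 member values under the alternatives, 619 kept direction and side of the threshold, 23 (3 genes) lost the call, 1 gained it and 59 (13 genes, none called) changed sign. Library totals moved the median of all genes by -0.11 and hepatocyte scaling by -0.17. Sign changes with library totals were Axin2 -0.057, Znrf3 -0.0030, Hal -0.0086, Sds -0.0077, Tat -0.11, and with hepatocyte scaling Axin2 -0.13, Tbx3 -0.0040, Znrf3 -0.081, Hal -0.025, Hsd17b13 -0.055, Etnppl -0.0077, Tat -0.18. With RLE factors, DESeq2, limma-voom, no filter and the replicate block in turn, Slc1a2 was 0.010, 0.016, 0.054, 0.013, 0.055 and Nags 0.0042, 0.0081, 0.0082, 0.0070, 0.0083. Tat was -0.0093 with limma-voom and -0.0091 with the block. With 1 library left out, sign changes occurred within -0.20 to 0.25 for Slc1a2, -0.15 to 0.14 for Cyp1a2, -0.028 to 0.24 for Axin2, -0.13 to 0.43 for Sp5, -0.20 to 0.073 for Gulo, -0.093 to 0.080 for Nags, -0.082 to 0.19 for Hal, -0.11 to 0.36 for Sds, -0.033 to 0.34 for Etnppl, -0.12 to 0.073 for Tat. The cause was not tested. Cyp1a1 and Rhbg had the fewest counts of the members. The SE of the log2 fold change was largest for Sp5 (0.46) and Cyp1a1 (0.44), then Slc1a4 (0.36), Nkd1 (0.34) and Rhbg (0.32).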
